A study of Mus musculus with 2 samples.

Results

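The genes described are 9 members of the interleukin 1 (IL-1) family and its inflammasome machinery: Il1a, Il1b, Il1rn, Il1r2, Il1rl1, Il18, Nlrp3, Casp1 and Casp4. They were chosen by name and matched to the gene symbols of the deposited matrices, where all 9 were present among 47729 genes. Their transcripts were counted in 3005 cells of the coculture library and 1817 cells of the library without coculture, after barcodes with fewer than 500 genes or more than 10% mitochondrial counts were set aside.

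IL-1 alpha and IL-1 beta are alarm cytokines that act on a shared receptor, while IL-18 acts on a receptor of its own. IL-1 beta and IL-18 are made as inactive precursors, and caspase-1 cuts them to their active forms after a sensor such as NLRP3 has assembled an inflammasome. In bone marrow myeloid cells the pathway is known for strong control at several levels at once: induced transcription of Il1b and Nlrp3, a receptor antagonist, a decoy receptor, and the activation of the caspase. Only transcripts were measured here, so neither cleavage nor secretion of the cytokines is shown by any value below.

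The coculture library held CD11bmidLy6Cmid cells from mouse bone marrow that had been cultured beside human mesenchymal stromal cells (MSC), kept apart in inserts labelled 0.4 μM (1:5, MSC to bone marrow; the MSC were preincubated for 24 h). The library without coculture held CD11bhiLy6Chi cells from bone marrow cultured without MSC. Both cultures started from femur marrow of C57BL/6NCrljOri, H-2b mice, both received granulocyte-macrophage colony-stimulating factor (GM-CSF) at 40 ng/mL for 5 days, and both sorts used a viability dye. DMEM was named as the medium of the coculture and RPMI1640 as that of bone marrow culture. How many mice were pooled and how many MSC donors were used is not given in the sources used here, and transcripts of the MSC were not analysed here. There was 1 library per group, so no test was possible: coculture, sort gate and library differed together and cannot be told apart, and whether the medium also differed is not clear from the labels. Differences below are between these libraries, and their 95% intervals cover counting error only.

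The coculture library held 29089241 UMIs (unique molecular identifiers, each counting 1 captured transcript) in the kept cells, with a median of 6031 per cell, and the library without coculture 27784963, with a median of 7016. The mitochondrial limit removed 2.87% of barcodes in the coculture library and 15.5% in the library without coculture. The libraries shared 4 cell barcodes, 2 of which were kept in both. Cells were grouped by clustering without the 9 genes and their pathway lists, and clusters were called "-like" from marker genes. The coculture library was 30.2% B lineage-like, 16.1% eosinophil-like, 15% neutrophil-like (451 cells), 13.7% basophil or mast cell-like, 9.68% mature dendritic cell-like, 3.23% T or NK cell-like and 3.46% granulocyte-monocyte progenitor-like, then 4.96% megakaryocyte or platelet-like, with 3.26% in a cluster left unnamed (cluster 14). The library without coculture was 58.6% neutrophil-like (1065 cells), 31.5% macrophage-like, 1.65% granulocyte-monocyte progenitor-like and 7.93% cluster 14. The transcript of the gated protein CD11b, Itgam, was seen in 33.5% of coculture cells and 81.8% of cells without coculture, and in 0.881% of the coculture B lineage-like cells. In most coculture cells no Itgam transcript was therefore read. Ly6c2, for the gated Ly6C, was seen in 19.0% of coculture cells and 50.2% of cells without coculture.

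Seen from its address in the genome (build GRCm38), the family sits in clusters. Il1a (chr2:129299610-129309972) and Il1b (chr2:129364570-129371139) lie side by side on the minus strand, with Il1rn on the plus strand of the same chromosome (chr2:24336853-24351494). The receptors Il1r2 (chr1:40074079-40125231) and Il1rl1 (chr1:40429570-40465415) lie on the plus strand of chromosome 1 with Il1r1 and Il1rl2 between them. The caspases Casp1 (chr9:5298517-5307265) and Casp4 (chr9:5308828-5336783) are direct neighbours on the plus strand. Il18 (chr9:50554827-50581840) and Nlrp3 (chr11:59541568-59566956), both on the plus strand, stand alone. Genes on the opposite strand overlap Il1a (Gm14023), Il1b (Il1bos), Il1r2 (Gm16894) and Il18 (Bco2 and Tex12), and Gm37347 overlaps Il1r2 on its own strand. Whether the counting used strand is not given in the sources used here, so reads of Il1a, Il1b, Il1r2 and Il18 and of these partners cannot be told apart.

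Promoter sequence is shown for Il1b and Il1rl1, because these 2 of the 9 genes had the highest coculture levels relative to the library without coculture and did so in different cells. The sequences are the 250 bases before the RefSeq transcription start (build GRCm38.p6), on the gene's own strand. All 9 genes matched the RefSeq promoter table, with 14 promoters among them. Capitals mark a TATAAA box in Il1b and the GATA-type letters AGATAA or TGATAA in Il1rl1, which has 2 annotated starts.
Il1b, chr2:129371140-129371389, minus strand: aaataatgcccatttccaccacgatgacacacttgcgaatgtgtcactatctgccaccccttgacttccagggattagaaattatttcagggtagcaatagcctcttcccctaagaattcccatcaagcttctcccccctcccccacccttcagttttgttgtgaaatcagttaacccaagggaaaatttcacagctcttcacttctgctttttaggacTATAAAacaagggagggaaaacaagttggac
Il1rl1 first start, chr1:40429320-40429569, plus strand: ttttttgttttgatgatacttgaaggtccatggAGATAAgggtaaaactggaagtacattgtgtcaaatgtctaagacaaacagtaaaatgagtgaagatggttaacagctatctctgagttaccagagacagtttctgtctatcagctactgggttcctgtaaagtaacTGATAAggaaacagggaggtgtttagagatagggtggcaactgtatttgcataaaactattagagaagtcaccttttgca
Il1rl1 second start, chr1:40439379-40439628, plus strand: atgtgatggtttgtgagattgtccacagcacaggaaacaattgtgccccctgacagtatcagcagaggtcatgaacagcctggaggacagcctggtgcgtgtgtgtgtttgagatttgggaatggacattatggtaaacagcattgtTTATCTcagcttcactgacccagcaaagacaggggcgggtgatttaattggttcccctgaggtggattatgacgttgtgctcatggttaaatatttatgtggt

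The motifs described were searched on both strands: AGATAA and TGATAA, the letters bound by GATA factors, and TATAAA, the TATA box. Letters of NF-kB and PU.1 were also searched and are not described. TATAAA lies 31 to 26 bases before the Il1b start, and 12.4% of 32851 promoter windows of the same length hold it. The first Il1rl1 start has AGATAA 217 to 212 bases and TGATAA 80 to 75 bases before it, and the second has AGATAA on the reverse strand 103 to 98 bases before it, printed as TTATCT. One or the other GATA spelling is in 16.6% of all windows, so a single match is common. Among the 9 genes, GATA letters were also found before Il1r2, Nlrp3 and Casp4, and TATAAA also before Il1a and Il18. The matches describe letters only, and 3′ counts cannot tell which Il1rl1 start was used or whether the soluble or the membrane form of the receptor was made.

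Over all kept cells, 8 of the 9 genes reached 10 CPM (UMIs per 1000000 UMIs summed over the cells) in at least 1 library and were counted as measured. Among these 8, Il1b, Il1rl1 and Casp4 were at least 2-fold higher in the coculture library, Il1rn and Nlrp3 were at least 2-fold lower, and Il1a, Il1r2 and Casp1 lay between. As background, 12.7% of the 8668 genes measured passed 2-fold upward in coculture and 11.7% passed it downward. The median log2 ratio of the 8 genes was -0.47, against 0.03 over all measured genes. Il1rl1 reached 10 CPM only in coculture, and Il1a only without coculture. The Il1b call did not hold under 2 other settings: its log2 ratio was 0.43 when each cell's own CPM was averaged and 0.37 without the macrophage-like cells, both under 2-fold. Without the macrophage-like cells, Nlrp3 was at -0.85, and Il1r2 passed 2-fold under both settings, at -1.90 and -1.58. In sums over mixed cells, fewer cells of a type and less RNA per cell cannot be told apart, and the cell classes of the libraries differed as listed above.

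**Figure D1:**
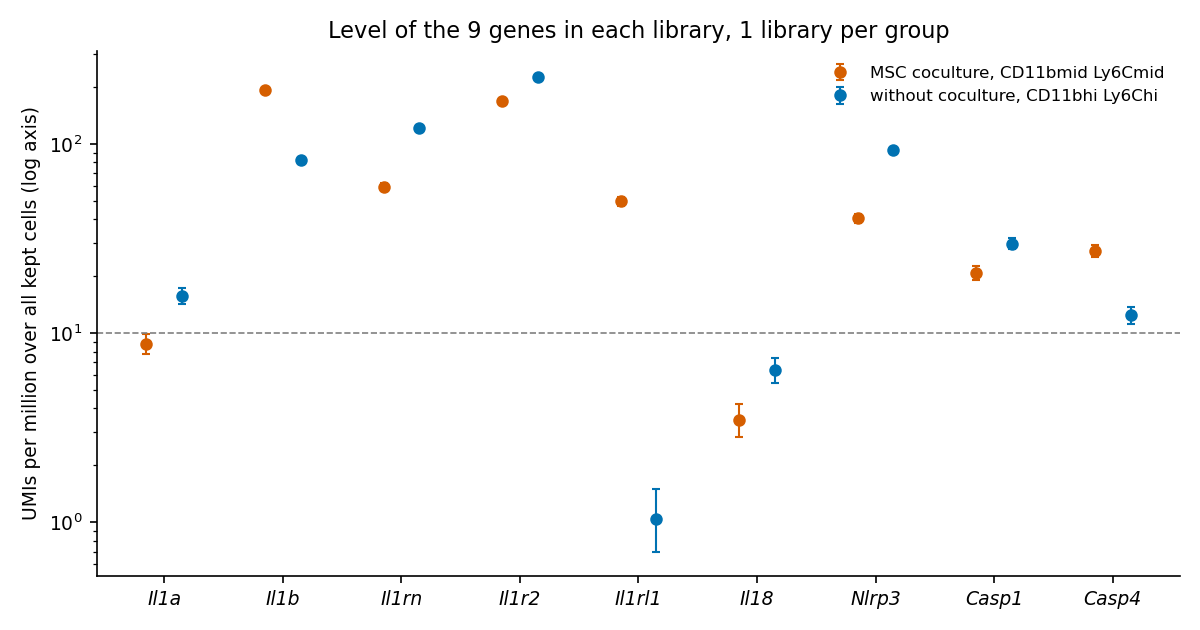
Level of each of the 9 genes in CPM over all kept cells, on a log axis, in the coculture library (orange) and the library without coculture (blue); bars are exact Poisson 95% intervals and the dashed line marks 10 CPM. Il1rl1 shows the widest gap, at 49.7 CPM in coculture against 1.04 CPM without coculture.

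Among the ligands, Il1b had 5581 UMIs (192 CPM, 187 to 197) in the coculture library and 2275 UMIs (81.9 CPM, 78.5 to 85.3) in the library without coculture, 2.34-fold higher in coculture. The share of cells with an Il1b UMI was 25.4% in coculture and 24.6% without coculture at full depth. After every cell was thinned to 2000 UMIs, which left 2740 coculture cells and 1677 cells without coculture, it was 15.6% (14.3 to 17.0) in coculture and 9.66% (8.29 to 11.2) without coculture. The near-equal shares at full depth thus did not hold at equal depth. Il1a, the ligand that needs no caspase-1 cleavage to act, had 255 UMIs (8.77 CPM) in coculture and 438 UMIs (15.8 CPM) without coculture, and in the library without coculture 4 cells held 50% of these UMIs. Il18 had 101 UMIs (3.47 CPM) in coculture and 177 UMIs (6.37 CPM) without coculture, under the level counted as measured. Both ligands were thus scarce in the whole libraries, and the Il1a value without coculture rested on a handful of cells.

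Il1rn, which encodes the secreted antagonist that occupies the IL-1 receptor, had 1717 UMIs (59.0 CPM, 56.3 to 61.9) in coculture and 3386 UMIs (122 CPM, 118 to 126) without coculture, 2.06-fold lower in coculture. An Il1rn UMI was seen in 14.6% of coculture cells and 49.0% of cells without coculture, and after thinning in 6.86% and 21.2%. Il1r2, the decoy receptor that binds IL-1 without signalling, had 4923 UMIs (169 CPM) in coculture and 6307 UMIs (227 CPM) without coculture, a log2 ratio of -0.42 (-0.48 to -0.37). The antagonist and the decoy were therefore both lower in coculture while Il1b was higher, and only the antagonist passed 2-fold. Il1r1, the signalling receptor, had 62 UMIs in coculture and 136 without coculture, too few to count as measured.

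Il1rl1, the receptor chain for IL-33 known as ST2, had 1446 UMIs (49.7 CPM, 47.2 to 52.3) in coculture and 29 UMIs (1.04 CPM, 0.699 to 1.5) without coculture. The ratio was 47.6-fold, with a log2 value of 5.57 (5.05 to 6.16). Of all 9 genes this was the only one found in a sizeable share of one library (20.2% of coculture cells) and hardly in the other (1.54% of cells without coculture); after thinning the shares were 8.14% and 0.477%. Transcripts of its ligand Il33 numbered 2 in coculture and 0 without coculture.

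Nlrp3, the sensor of the best-known inflammasome, had 1176 UMIs (40.4 CPM, 38.1 to 42.8) in coculture and 2570 UMIs (92.5 CPM, 89.0 to 96.1) without coculture, 2.29-fold lower in coculture. Casp1, the enzyme that cuts the precursors, had 606 UMIs (20.8 CPM) in coculture and 825 UMIs (29.7 CPM) without coculture, a log2 ratio of -0.51 (-0.66 to -0.36). Casp4, the mouse caspase-11 that senses bacterial lipopolysaccharide inside the cell, had 790 UMIs (27.2 CPM, 25.3 to 29.1) in coculture and 345 UMIs (12.4 CPM, 11.1 to 13.8) without coculture, 2.19-fold higher in coculture. The direction of Casp1 was not stable, at 0.025 when each cell's own CPM was averaged, and within neutrophil-like cells both caspases were higher in coculture. Scaling by trimmed mean of M-values, a factor that shifts the median of all genes by -0.14, brought Casp4 to a log2 ratio of 0.99, just under 2-fold.

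The cell classes showed where these transcripts were. The tile plot of levels by class gives every gene in every class of at least 30 cells.

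**Figure D2:**
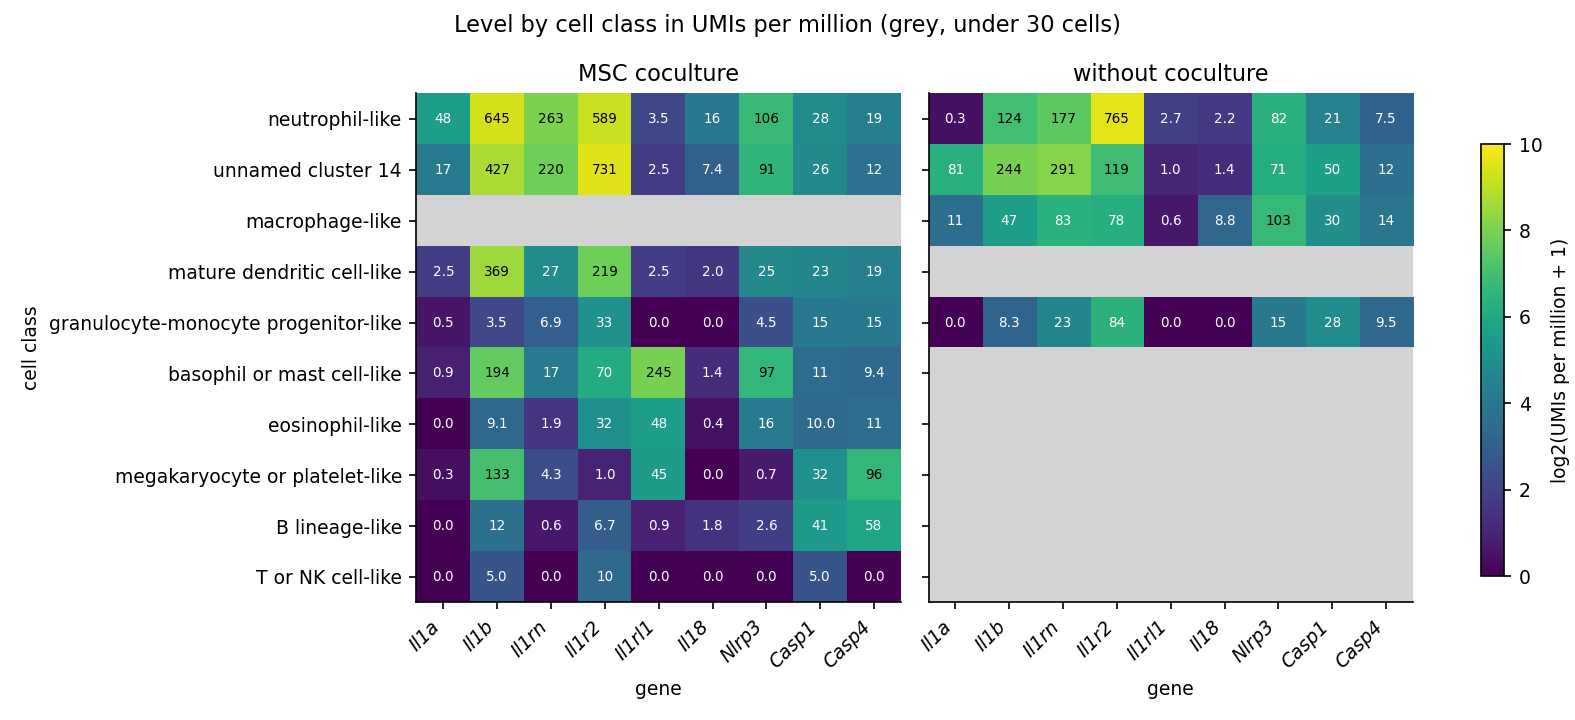
Levels of the 9 genes (columns) in each cell class (rows) in the coculture library, left, and the library without coculture, right; numbers are CPM, colour is log2(CPM + 1), and grey marks classes with fewer than 30 cells. Il1b was highest in neutrophil-like cells of the coculture at 645 CPM, Il1rl1 in basophil or mast cell-like cells at 245 CPM, and Casp4 in megakaryocyte or platelet-like cells at 96.1 CPM.

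In the coculture library the neutrophil-like cells held 52.9% of Il1b UMIs, at 645 CPM (622 to 669). Mature dendritic cell-like cells held 13.1% at 369 CPM, cluster 14 held 12.4% at 427 CPM, and the basophil or mast cell-like class 12.2% at 194 CPM. Megakaryocyte or platelet-like cells held 7.17% at 133 CPM. Il1b in coculture was therefore spread over 5 classes, while eosinophil-like (9.14 CPM), T or NK cell-like (5.05 CPM) and progenitor-like cells (3.47 CPM) held little. In the library without coculture, cluster 14 had 244 CPM, neutrophil-like cells 124 CPM and macrophage-like cells 46.5 CPM, and the macrophage-like cells held the most UMIs, 37.0%.

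How evenly a class carried Il1b also differed. In the coculture, 39 of 451 neutrophil-like cells held 50% of the class's Il1b UMIs, while 9 of 413 basophil or mast cell-like cells did so for theirs. Within the basophil or mast cell-like class, cluster 3 (led by Tpsb2, Akr1c18 and Cd200r3) had 262 CPM and cluster 0 (led by Gzmb, Mcpt8 and Tpsg1) 101 CPM. Summed neutrophil markers were 640 CPM in cluster 3 and 12207 CPM in cluster 0. They were not examined in the 9 cells that held 50% of the class's Il1b UMIs, and the source of these UMIs was not tested. In the library without coculture, 3 of 144 cells of cluster 14 held 50% of its Il1b UMIs and 1 cell alone held 27.3%. Class sums that rest on so few cells have wider true uncertainty than their counting intervals.

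Depth differed between classes and libraries, so shares of cells were compared after thinning every cell to 2000 UMIs. Free RNA can put a UMI into a cell that does not express the gene, and thinning does not remove it. Cells with fewer UMIs were left out, which kept 417 of 451 neutrophil-like cells in coculture and 942 of 1065 without coculture. An Il1b UMI remained in 51.6% (46.6 to 56.5) of coculture neutrophil-like cells, against 12.4% (10.4 to 14.7) of those without coculture; before thinning the shares were 70.7% and 22.0%. B lineage-like cells of the coculture, which serve as the low-background class, had 0.638% after thinning and 1.10% before it, at a median of 2866 UMIs per cell against 7579 in the neutrophil-like cells. Mature dendritic cell-like cells had 34.2%, megakaryocyte or platelet-like cells 18.9% and basophil or mast cell-like cells 10.2% after thinning. Each of these was well above the B lineage-like share, and eosinophil-like cells at 1.07% (0.349 to 2.48) were within its interval. The library without coculture had 1 B lineage-like cell, so its shares have no such reference for free RNA.

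**Figure D3:**
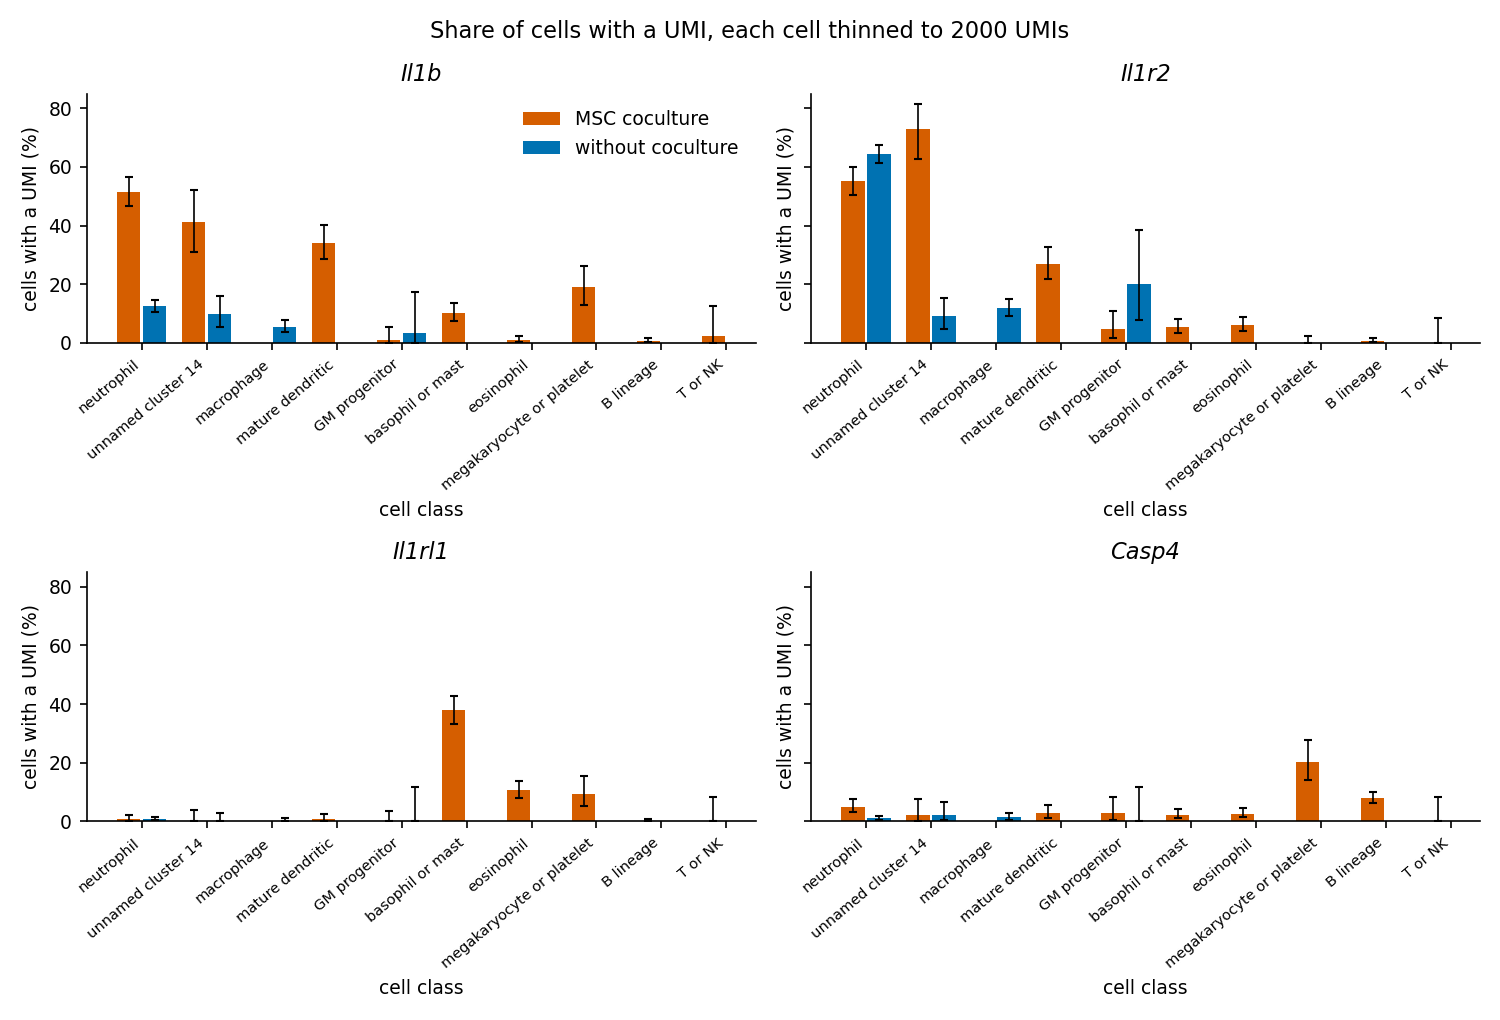
Percent of cells with at least 1 UMI of Il1b, Il1r2, Il1rl1 and Casp4 in each class after thinning to 2000 UMIs per cell, in the coculture library (orange, left bar) and the library without coculture (blue, right bar); bars carry exact binomial 95% intervals. Il1b was seen in 51.6% of coculture neutrophil-like cells and 12.4% of those without coculture, and Il1rl1 in 37.8% of basophil or mast cell-like cells.

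Il1a was narrower. Neutrophil-like cells held 85.5% of its UMIs in coculture, at 47.7 CPM. Without coculture, cluster 14 held 53.0% at 81.1 CPM and macrophage-like cells 46.6% at 11.3 CPM, while 1065 neutrophil-like cells had 2 UMIs between them. A single cell of cluster 14 held 123 of its 232 Il1a UMIs. Il18 followed a similar split by library: 70.3% of its UMIs lay in neutrophil-like cells in coculture (15.5 CPM) and 90.4% in macrophage-like cells without coculture (8.84 CPM).

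Il1rn and Il1r2 were carried mainly by the same classes as Il1b, with different balances. In coculture, neutrophil-like cells held 70.1% of Il1rn UMIs at 263 CPM and cluster 14 held 20.8% at 220 CPM, while mature dendritic cell-like cells had 27.3 CPM and basophil or mast cell-like cells 16.6 CPM. Without coculture, macrophage-like cells held 44.2% at 82.8 CPM, neutrophil-like cells 30.6% at 177 CPM and cluster 14 24.6% at 291 CPM. The antagonist was thus plentiful in neutrophil-like cells and cluster 14 of the coculture, and sparse in the other classes that carried Il1b there. For Il1r2, coculture cluster 14 had 731 CPM, neutrophil-like cells 589 CPM and mature dendritic cell-like cells 219 CPM; without coculture, neutrophil-like cells had 765 CPM and held 71.1% of the UMIs.

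The number of Il1b UMIs per Il1r2 UMI in the same class put these balances on 1 scale. It was 1.10 in neutrophil-like cells of the coculture and 0.162 in those without coculture. Cluster 14 ran the other way, with 0.584 in coculture and 2.05 without coculture, and macrophage-like cells without coculture had 0.598. For cluster 14, however, 3 of 144 cells without coculture held 50% of its Il1b UMIs, and the libraries hold mostly different cells there. In the coculture, mature dendritic cell-like cells had 1.69, basophil or mast cell-like cells 2.76 (cluster 3 alone 7.88) and eosinophil-like cells 0.287. Megakaryocyte or platelet-like cells had 400 Il1b UMIs beside 3 of Il1r2, so a cytokine transcript was read there with almost none of the decoy. Against Il1rn, neutrophil-like cells had 2.45 Il1b UMIs per Il1rn UMI in coculture and 0.699 without coculture, and megakaryocyte or platelet-like cells had 30.8.

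Il1rl1 was a gene of the basophil and eosinophil side of the coculture. The basophil or mast cell-like class had 59.3% of its UMIs at 245 CPM (229 to 262), eosinophil-like cells 28.5% at 48.3 CPM and megakaryocyte or platelet-like cells 9.41% at 45.2 CPM. After thinning, a UMI remained in 37.8% of basophil or mast cell-like cells, 10.7% of eosinophil-like cells and 9.46% of megakaryocyte or platelet-like cells, against 0.128% of B lineage-like cells. The 2 basophil or mast cell-like clusters both carried it, at 296 CPM in cluster 3 and 175 CPM in cluster 0. Of the megakaryocyte or platelet-like UMIs, 1 cell held 21 of 136. In neutrophil-like cells Il1rl1 stood at 3.50 CPM in coculture and 2.73 CPM without coculture, with 16 UMIs in each library. The 29 UMIs without coculture lay in neutrophil-like (16), macrophage-like (10) and cluster 14 cells (3), and that library had no basophil or mast cell-like, eosinophil-like or megakaryocyte or platelet-like class.

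Nlrp3 in coculture was held by neutrophil-like cells (41.1% of UMIs, 106 CPM) and basophil or mast cell-like cells (28.8%, 96.8 CPM), with cluster 14 at 91.0 CPM. Without coculture the macrophage-like cells held 72.6% at 103 CPM, and 84.1% of them had an Nlrp3 UMI at a median depth of 25472 UMIs. Across these classes in both libraries Nlrp3 lay between 71.4 and 106 CPM, while it was 2.63 CPM in B lineage-like and 0.665 CPM in megakaryocyte or platelet-like cells. The lower Nlrp3 of the coculture library as a whole therefore stood beside levels that differed by less than 2-fold between the libraries in neutrophil-like cells and in cluster 14.

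The caspases went beyond the myeloid classes. Casp1 was highest in coculture B lineage-like cells (40.6 CPM, 22.9% of UMIs), followed by megakaryocyte or platelet-like cells (31.6 CPM), whose counting interval overlaps theirs, and neutrophil-like cells (28.0 CPM). Without coculture, cluster 14 had 49.7 CPM and macrophage-like cells 29.6 CPM with 65.0% of UMIs. Casp4 was highest in coculture megakaryocyte or platelet-like cells (96.1 CPM, 36.6% of UMIs, 64.4% of cells) and in B lineage-like cells (58.1 CPM, 25.2% of UMIs), neither of which formed a class without coculture. Together these held most Casp4 UMIs of the coculture library. Within the B lineage-like class it ran from 23.9 CPM in cluster 5 to 112 CPM in cluster 15. Neutrophil-like cells had 18.8 CPM in coculture and 7.50 CPM without coculture, and macrophage-like cells without coculture had 14.3 CPM.

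Neutrophil-like cells were the largest class found in both libraries, 451 in coculture and 1065 without coculture, though mostly from different clusters in each. Here Il1a, Il1b, Il18 and Casp4, 4 of the 8 measured, passed 2-fold upward in coculture and 0 passed it downward, against 10.3% upward and 7.42% downward among all 7629 measured genes. The median log2 ratio was 0.95 for the 8 genes and -0.04 for all measured genes. Il1a, Il18 and Casp4 reached 10 CPM in coculture only, so they counted as measured through the library where they were higher. The count and the median both include them. Il1a was at 218 UMIs (47.7 CPM) in coculture and 2 UMIs (0.341 CPM) without coculture, a log2 ratio of 7.13 (5.26 to 10.18). In coculture 1 cell held 54 of these UMIs and 11 cells held 50%. Il1b was at 2951 UMIs (645 CPM) in coculture and 725 UMIs (124 CPM) without coculture, 5.22-fold higher. Il18 had 71 UMIs (15.5 CPM) in coculture and 13 (2.22 CPM) without coculture, with a log2 ratio of 2.81 (1.94 to 3.79), and Casp4 had 86 (18.8 CPM) and 44 (7.50 CPM), a log2 ratio of 1.33 (0.79 to 1.89). All 3 ligands were therefore higher in neutrophil-like cells of the coculture, including Il1a and Il18, whose values over all cells were lower in coculture by less than 2-fold.

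The antagonist, the decoy receptor, the sensor and caspase-1 differed less in these cells. Il1rn was at 263 CPM in coculture and 177 CPM without coculture (log2 ratio 0.57, 0.45 to 0.69), and Il1r2 at 589 CPM and 765 CPM (-0.38, -0.45 to -0.31). Nlrp3 was at 106 CPM in coculture and 82.5 CPM without coculture (0.36), and Casp1 at 28.0 CPM and 20.6 CPM (0.44). None of these 4 reached 2-fold in either direction. After thinning, Il1r2 was seen in 55.2% of coculture neutrophil-like cells and 64.5% of those without coculture, so most cells of both libraries carried the decoy.

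**Figure D4:**
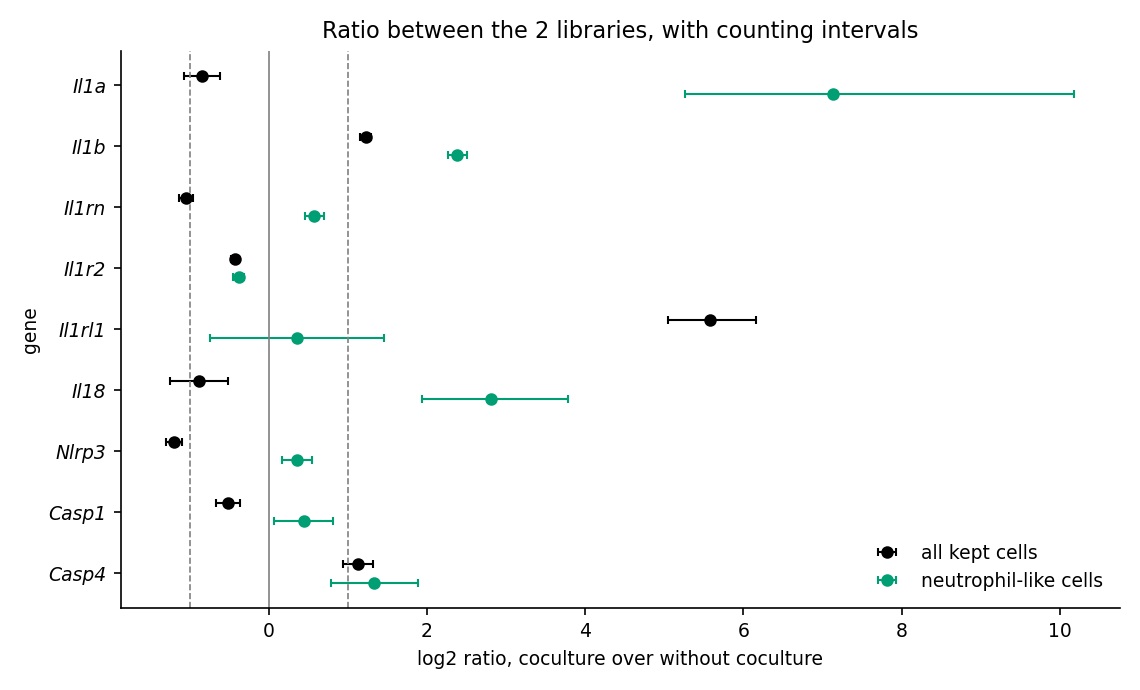
Log2 ratio of coculture over without coculture for each of the 9 genes, over all kept cells (black) and within neutrophil-like cells (green); bars are exact 95% intervals from counting error and dashed lines mark 2-fold. Il1a, Il1rn, Il18, Nlrp3 and Casp1 lie left of 0 over all cells and right of 0 within neutrophil-like cells.

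The neutrophil-like class did not consist of the same clusters in the libraries. In coculture, 422 of its cells formed cluster 1, led by Arg1, Cxcl3, Retnlg and Nos2; without coculture, 640 formed cluster 18, led by Asprv1 and Hp, and 309 formed cluster 2, led by Slfn1. Cluster 12, led by the secondary granule genes Ltf and Camp, was shared, with 25 coculture cells and 115 cells without coculture. Summed neutrophil markers were 72548 CPM in coculture and 158614 CPM without coculture, with 2 of 20 at least 2-fold higher, 8 lower and none at 0. Summed macrophage markers were 1124 CPM in coculture and 792 CPM without coculture, with 7 of 13 measured at least 2-fold higher, 1 lower and none at 0. Cluster 2, with 327 of the class's 725 Il1b UMIs without coculture, had neutrophil markers at 16067 CPM and macrophage markers at 1783 CPM, close in the neutrophil markers to the macrophage-like cluster (14691 CPM). Without cluster 2 the Il1b log2 ratio of the class was 2.94. These marker shifts moved together with the ligand values, and their part in them was not tested. Within the class without coculture Il1b itself ranged from 18.6 CPM in cluster 12 and 114 CPM in cluster 18 to 295 CPM in cluster 2, all below the 669 CPM of coculture cluster 1. In the shared cluster 12, Il1b was at 92.0 CPM (19 UMIs) in coculture and 18.6 CPM (28 UMIs) without coculture, and Il1a had 0 UMIs in both.

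Cluster 14 gave a different picture. Of all 8149 genes measured there, 12.2% passed 2-fold upward in coculture and 9.11% downward. Il1r2 was 6.13-fold higher in coculture (731 CPM against 119 CPM without coculture) and Il1a 4.89-fold lower (16.6 CPM against 81.1 CPM), while Il1b was at 427 CPM in coculture and 244 CPM without coculture (log2 ratio 0.80). At a finer resolution of 1.2, 91 of its 98 coculture cells fell in a C1qa-led macrophage-like cluster, and the other 7 fell with all 144 cells without coculture in a cluster led by Igha, Jchain and Ccl17. The values therefore set different cells side by side. Leading genes were taken over both libraries together. Summed B lineage markers, which include Igha and Jchain, were 15651 CPM in cluster 14 cells of the coculture and 34.6 CPM in those without coculture. Igha and Jchain thus did not mark the cells without coculture. All 110 cells of the C1qa-led cluster came from the coculture, 19 of them from other classes. In these cells Il1b was at 560 CPM and Il1r2 at 732 CPM, so macrophage-like cells of the coculture carried both the cytokine and the decoy. Among granulocyte-monocyte progenitor-like cells (104 in coculture, 30 without coculture), Il1rn, Il1r2 and Nlrp3 were at least 2-fold lower in coculture, with Il1r2 at 32.7 CPM against 84.2 CPM without coculture. These 3 of the 5 genes measured in that class rested on 9 to 66 UMIs in coculture and 13 to 71 without coculture, while 16.7% of its 7509 measured genes passed 2-fold upward and 7.52% downward. Il1rn and Nlrp3 reached 10 CPM in that class only without coculture.

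Detection of these genes in the same cells differed by class. In thinned coculture neutrophil-like cells, Il1b and Il1rn were both seen in 17.3%, against a product of shares of 17.6%, and Il1b and Il1r2 in 28.1% against 28.4%. Without coculture the figures were 3.93% against 2.97% for Il1b with Il1rn and 8.49% against 8.02% for Il1b with Il1r2. In macrophage-like cells without coculture, Il1b with Il1rn and Il1b with Il1r2 were each seen in 1.77% (10 cells), against products of 0.900% and 0.648%, and in cluster 14 without coculture Il1b with Il1rn was seen in 6.77% (9 cells) against 2.72%. In coculture mature dendritic cell-like cells, Il1r2 was seen in 40.4% of the 94 cells with Il1b and in 19.9% of the cells without it. Among Il1b-positive coculture cells, Il1r2 was seen in 1 of 41 basophil or mast cell-like cells (2.44%) and Il1rn in 2 (4.88%). In the Il1b-negative cells of that class the shares were 5.82% for Il1r2 and 0.554% for Il1rn. Of 28 Il1b-positive megakaryocyte or platelet-like cells, 0 had Il1r2 and 0 had Il1rn. Over all 148 thinned cells of that class the shares were 0% and 0.676%.

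Other genes of the pathway were taken from 7 lists that include the 9 genes. Beside their counts over all cells stand the shares among all 8668 measured genes, 12.7% at least 2-fold higher in coculture and 11.7% lower. Over all cells, the 4 measured ligands and antagonists had a median log2 ratio of -0.95, with Il1b at least 2-fold higher and Il1rn and Il36g lower; Il36g, a ligand of the IL-36 receptor, was at 15.3 CPM in coculture and 62.0 CPM without coculture. The 7 measured receptors had a median of 0.99, with 3 higher and 1 lower. Beside Il1rl1, these were Il18r1, the ligand-binding chain for IL-18, at 16.1 CPM in coculture and 3.20 CPM without coculture, and Sigirr, an inhibitory receptor, at 11.9 CPM and 3.85 CPM. Il1rl2, the IL-36 receptor, was lower, at 4.40 CPM in coculture and 25.5 CPM without coculture. Transcripts of this IL-36 ligand and receptor were thus both lower over all cells of the coculture. Within neutrophil-like cells 0 of the 6 measured ligands and antagonists were at least 2-fold lower, and the lowest log2 ratio was -0.27. Each receptor past 2-fold reached 10 CPM only in the library where it was higher. In the coculture, 46.3% of Il18r1 UMIs lay in basophil or mast cell-like cells, the class that also held most Il1rl1.

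The 10 measured inflammasome sensors and adaptors had a median log2 ratio of -0.88, with Nlrp3 and Nlrc4 at least 2-fold lower and 0 higher. Among all measured genes 11.7% were lower and 12.7% higher. Nlrc4, the sensor that works with NAIP proteins, was at 4.61 CPM in coculture and 11.1 CPM without coculture. It counted as measured only through the library without coculture. Pycard, the adaptor ASC that joins sensor and caspase-1, was at 304 CPM in coculture and 591 CPM without coculture over all cells, and at 605 CPM and 594 CPM in neutrophil-like cells. In that class its log2 ratio was 0.03 (-0.05 to 0.10). Of 8 measured caspases, gasdermins and membrane rupture genes (median 0.11), Casp4 and Serpinb9 were higher; Serpinb9, an inhibitor of granzyme B, was at 20.3 CPM in coculture and 3.46 CPM without coculture, with 84.1% of its coculture UMIs in mature dendritic cell-like cells. Serpinb9 reached 10 CPM in coculture only. Gsdmd, the pore protein of pyroptosis, was at 33.7 CPM in coculture and 56.3 CPM without coculture.

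Downstream, the 12 measured genes of the IL-1 receptor and Toll signalling chain had a median of -0.33, with 2 lower and 0 higher. These counts, and the NF-kB counts below, stand beside 11.7% lower and 12.7% higher among all measured genes. Myd88, the adaptor shared by these receptors, was at 26.4 CPM in coculture and 68.3 CPM without coculture, and Irak2, a kinase of the chain, at 19.6 CPM and 40.1 CPM. Of 15 NF-kB subunit and feedback genes (median 0.45), Rel, Relb and Bcl3 were higher, with log2 ratios of 1.09, 1.51 and 1.27. Mature dendritic cell-like cells held 41.8% of Rel and 59.3% of Relb UMIs in coculture, and Relb is also in the marker set that named them. The same genes stood closer together in neutrophil-like cells, where Rel was at 28.7 CPM in coculture and 26.8 CPM without coculture.

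**Figure D5:**
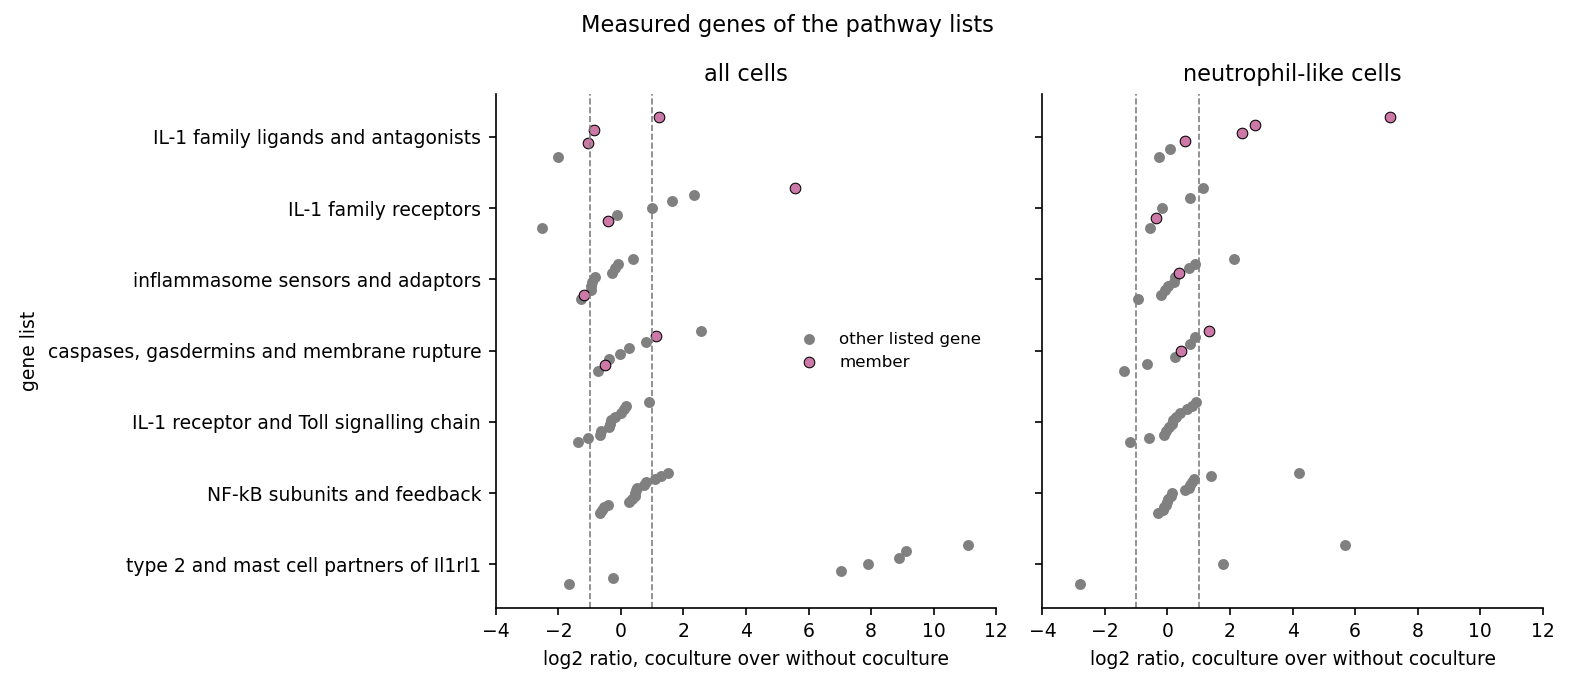
Log2 ratio of coculture over without coculture for every measured gene of the 7 pathway lists, over all cells (left) and within neutrophil-like cells (right); pink points are the 9 genes, grey points the other listed genes, and dashed lines mark 2-fold. Ligands sit mostly below 0 over all cells and mostly above 0 within neutrophil-like cells, with medians of -0.95 and 1.48.

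Within neutrophil-like cells the same lists gave medians of 1.48 for 6 ligands and antagonists, -0.19 for 5 receptors, 0.22 for 10 sensors and adaptors, 0.44 for 7 caspases and related genes, 0.16 for 12 signalling genes and 0.14 for 15 NF-kB genes. The ligand median includes Il1a and Il18, which reached 10 CPM in coculture only. Il1rap, the shared co-receptor of IL-1 and IL-33, was at 35.9 CPM in coculture and 16.4 CPM without coculture. Myd88 was again lower, at 31.3 CPM in coculture and 71.2 CPM without coculture, and so was Serpinb1a, an inhibitor of neutrophil serine proteases, at 121 CPM and 320 CPM. Of the 52 measured listed genes outside the ligand list, 7 were at least 2-fold higher (13.5%) and 3 lower (5.77%), beside 10.3% and 7.42% of all genes. Gbp2 (log2 ratio 2.14), Nfkbiz (1.40) and Tnip3 (4.19) were among the higher ones, with Il1rap, Casp4, Gata2 and Csf2rb, and Kit was lower beside Myd88 and Serpinb1a. Tnip3, an NF-kB feedback gene, had 57 UMIs in coculture and 4 without coculture. Of the higher genes, at least Casp4, Tnip3 and Gata2 reached 10 CPM in coculture only, and so counted as measured through it.

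The type 2 and mast cell partners of Il1rl1 differed most over all cells. Gata1 and Fcer1a had 753 and 1501 UMIs in coculture and 0 without coculture, which against a floor of 3 UMIs per library is at least 240-fold higher for Gata1 and at least 478-fold higher for Fcer1a. Ms4a2 had 2304 UMIs in coculture and 1 without coculture (log2 ratio 11.10, 8.62 to 16.41), and Il4 had 575 and 1 (9.10, 6.62 to 14.41). Gata1 and Gata2 are transcription factors of basophil, mast and megakaryocyte cells, Fcer1a and Ms4a2 are chains of the high-affinity IgE receptor, and Il4 is the leading type 2 cytokine. Gata2 was at 287 CPM in coculture and 2.20 CPM without coculture, while Kit, the stem cell factor receptor, was lower, at 10.3 CPM and 32.9 CPM. Fcer1a, Ms4a2, Kit and Gata2 are also among the markers that named the basophil or mast cell-like class, so their levels and that of Il1rl1 over all cells are not separate from the presence of that class. The median of the 7 measured genes, 7.91, is Gata1 with that floor. Within neutrophil-like cells, Csf2rb, the shared signalling chain for GM-CSF and related cytokines, was at 1034 CPM in coculture and 299 CPM without coculture (log2 ratio 1.79), and Kit was lower (-2.80). Gata2 had 120 UMIs in coculture and 0 without coculture in these cells, 51.3-fold higher with the same floor of 3 UMIs. In coculture cluster 1, which held most of these cells, summed basophil or mast cell markers were 325 CPM, against 34673 CPM in basophil or mast cell-like cluster 3, and their part in the Gata2 value was not tested.

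For each gene, the genes with the most similar level were sought over 13 sums of a class in a library, by Pearson correlation of log2(CPM + 1). The points share libraries and depth, so r is a description. Il1b was most like 2210408F21Rik (r = 0.930), Cd244 (0.920) and Csf2rb2 (0.901), the last a receptor chain for IL-3. Il1a was most like Dcstamp (0.918), Pdgfa (0.914) and Ptx3 (0.897), and Il18 most like B3galt2 (0.943), Slc7a2 (0.931) and Dnajc13 (0.927). These 3 sets shared no gene, but each holds only 3 of 8668 measured genes, and how often other genes share one was not counted. Il1rn was most like Creb5 (0.956), Lamtor1 (0.944) and Shc1 (0.944), and Il1r2 most like Ostf1 (0.961), S100a11 (0.949) and C5ar1 (0.930), the receptor for complement C5a. Il1rl1 was most like Ms4a2 (0.962), Slc18a2 (0.938), the vesicle transporter for histamine and other monoamines, and Angpt1 (0.925). Nlrp3 was most like Tyrobp (0.982), a signalling adaptor of myeloid cells, Ccr1 (0.971), a chemokine receptor, and Apobr (0.955). Casp1 was most like Tifa (0.967), Plk2 (0.876) and Apip (0.870), and Casp4 most like Lcorl (0.962), Sclt1 (0.951) and Scmh1 (0.922).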

How the data were processed

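The authors deposited 1 sparse matrix of UMI counts per library, whole numbers for 47729 genes with no normalization. Per the submitters' processing notes, reads were processed with bcl2fastq and Cell Ranger against the mouse build mm10, and the file headers give 3.1.0 as software version. The annotation release and the cell-calling rule were not given in the sources used here. Positions of genes came from GENCODE M21 and promoters from RefSeq.

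Barcodes were kept from 500 genes upward if mitochondrial UMIs made up 10% or less, 3005 in coculture and 1817 without coculture. Cells were clustered in scanpy 1.11.5 (log-transformed counts per 10000, 2000 variable genes without the 9 genes and the pathway lists, 30 principal components, 15 neighbours, Leiden in igraph 0.11.9 at resolution 0.8). A cluster was called "-like" when at least 3 markers of a set were 2-fold higher (at 20 CPM or more, pseudocount 5 CPM) and its 10 leading genes did not favour another set. The data had been seen when this naming rule was set. No doublet caller was run and no doublets were removed. UMIs were summed over cells and divided by the summed total to give CPM. Intervals are exact Poisson (CPM), exact conditional binomial (ratios) and Clopper-Pearson (shares), at 95%. They cover counting error only and are too narrow where few cells hold most UMIs. A gene at 0 took a floor of 3 UMIs per library, 0.103 CPM in coculture and 0.108 CPM without coculture. TMM factors came from edgeR 4.0.16. The calls were tested on simulated data.

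The members, lists and markers were chosen with earlier results of these data known. All 9 genes are described. Of the lists, the measured genes past 2-fold are named, at most 6 a list, with a few others (Il33, Il1r1, Pycard, Gsdmd and Rel within neutrophil-like cells) chosen after their values were seen. For each gene the 3 most similar genes are named.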

Additional observations from a re-analysis of the deposited data

Results flagged for a closer look

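For 4 genes the log2 ratio of coculture over without coculture had opposite signs in neutrophil-like cells and in cluster 14, with counting intervals on either side of 0. Il1a was at 7.13 in neutrophil-like cells and -2.29 in cluster 14. Il1rn was at 0.57 and -0.41, Casp1 at 0.44 and -0.94, and Il1r2 at -0.38 and 2.62 in the same 2 groups of cells. With 1 library per group the differences between these ratios were not tested. In cluster 14 the libraries hold different cells, as the split at resolution 1.2 showed, and 1 cell without coculture held 53.0% of that cluster's Il1a UMIs there.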

How the results depend on the processing

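No paired analysis was possible because there was 1 library per group and no test. Within neutrophil-like cells, the 8 alternatives (2 resolutions, all variable genes, a stricter cell filter, no cells of highest depth, TMM, and 2 ways of leaving out a cluster, chosen after seeing the data) gave log2 ratios of 6.52 to 7.83 for Il1a, 1.95 to 2.94 for Il1b, 2.16 to 3.21 for Il18 and 1.19 to 1.71 for Casp4, all at least 2-fold. Il1rn (0.42 to 0.97), Il1r2 (-0.71 to -0.27), Nlrp3 (0.09 to 0.46) and Casp1 (0.43 to 0.58) stayed under 2-fold. Over all cells, Il1rl1 ranged from 3.82 to 5.83 over 7 alternatives and Il1rn stayed at least 2-fold lower. Casp1 changed sign to 0.025 when each cell's own CPM was averaged, and Il18 to 0.98 without macrophage-like cells, an alternative also chosen after seeing the data; the cause was not tested.

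At a minimum of 50 CPM, 403 genes were at least 2-fold higher and 513 lower among 3465, against 1104 and 1010 among 8668, and of the listed genes 5 were higher and 4 lower among 26, against 14 and 8 among 63. At a minimum of 10 UMIs, 3824 were higher and 1898 lower among 16315, and 21 listed genes were higher and 13 lower among 80. The alternatives change how many genes are tested. Shares of cells with a UMI scale with thinning: Il1b in neutrophil-like cells was at 34.8% in coculture and 8.55% without coculture at 1000 UMIs, and at 65.2% and 16.0% at 4000 UMIs. Differences smaller than the counting intervals could not be resolved at this depth, and genes under 10 CPM were left out of the calls by choice.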
